A study of Mus musculus with 12 samples.

Results

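The muscle acetylcholine receptor and the proteins that gather it under the motor nerve ending were followed in injured mouse muscle through 10 genes, chosen by symbol from the 54532 genes of the count table. The 5 receptor subunits are Chrna1 (alpha), Chrnb1 (beta), Chrnd (delta), Chrng (gamma) and Chrne (epsilon), and the 5 junction organisers are Agrn, Lrp4, Musk, Dok7 and Rapsn. All 10 passed the filter on low counts and were tested among 16393 genes. RNA of whole tibialis anterior, a leg muscle made mostly of fast fibres, was sequenced in 12 libraries from mice labelled with the 129svlmJ strain. Every muscle had been injected with glycerol, which destroys fibres and is followed by regeneration and by fat formation within the muscle, and was taken after 5 days. The 6 control libraries came from wild type mice, and the 6 knockout libraries from mice in which Pparg, a nuclear receptor needed for fat cells to form, had been removed conditionally from FAPs (fibro-adipogenic progenitors), the mesenchymal cells that give rise to fat in muscle. The Cre driver and the age of the animals are not given in the sources used here, and no label states that each library is a different animal, so the p-values cover the spread between libraries, which may be technical. Uninjured muscle is not among the samples, so each value compares knockout with control in regenerating muscle only.

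The muscle acetylcholine receptor is a five-subunit ion channel that opens when the motor nerve releases acetylcholine. The foetal form holds alpha, beta, delta and gamma subunits, and in the adult form epsilon takes the place of gamma; denervated and regenerating fibres make the gamma form again, along much of their surface. Agrin from the nerve binds LRP4 on the fibre, LRP4 activates the receptor kinase MuSK, the adaptor DOK7 sustains that activity, and rapsyn ties the receptors into a cluster. Transcription of the subunits in new fibres runs through E boxes, the CANNTG motifs bound by MyoD and myogenin, whereas genes transcribed at the synapse can also carry an N box, CCGGAA, bound by ETS factors.

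The promoters of 4 receptor subunits are shown because gamma and epsilon, which replace one another, differ in these motifs. Each sequence holds the 250 bases before the transcription start in the RefSeq promoter table for GRCm38.p6, 5′ to 3′ on the strand of the gene, with E boxes and N boxes in capitals. Chrna1 is at chr2:73580339-73580588 (minus strand), Chrnb1 at chr11:69795938-69796187 (minus strand), Chrng at chr1:87205561-87205810 (plus strand) and Chrne at chr11:70619195-70619444 (minus strand).
Chrna1: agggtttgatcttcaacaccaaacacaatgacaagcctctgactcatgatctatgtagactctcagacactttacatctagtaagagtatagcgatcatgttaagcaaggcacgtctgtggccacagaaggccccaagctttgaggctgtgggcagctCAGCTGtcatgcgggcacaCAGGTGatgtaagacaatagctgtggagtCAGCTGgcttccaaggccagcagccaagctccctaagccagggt
Chrnb1: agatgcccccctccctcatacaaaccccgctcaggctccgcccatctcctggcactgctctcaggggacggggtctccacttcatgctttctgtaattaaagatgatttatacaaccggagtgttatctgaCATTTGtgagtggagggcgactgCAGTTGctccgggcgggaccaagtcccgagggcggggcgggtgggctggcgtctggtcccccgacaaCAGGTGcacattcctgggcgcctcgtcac
Chrng: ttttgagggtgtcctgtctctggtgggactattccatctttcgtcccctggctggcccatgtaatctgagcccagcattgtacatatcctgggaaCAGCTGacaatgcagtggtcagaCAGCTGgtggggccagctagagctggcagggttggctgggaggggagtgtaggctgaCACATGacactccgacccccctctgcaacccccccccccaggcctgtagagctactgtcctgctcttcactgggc
Chrne: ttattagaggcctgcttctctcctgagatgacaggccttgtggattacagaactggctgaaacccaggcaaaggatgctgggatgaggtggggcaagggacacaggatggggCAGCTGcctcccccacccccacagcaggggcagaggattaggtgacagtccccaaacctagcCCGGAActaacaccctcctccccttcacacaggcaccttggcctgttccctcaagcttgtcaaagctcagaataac
The gamma promoter held 3 E boxes, beginning 155, 132 and 75 bases before the start, and those at 155 and 132 read CAGCTG. Its window lies inside the annotated span of the gene (chr1:87204657-87212694), past the annotated gene start, and 1 of its bases is in an annotated exon. The epsilon promoter held 1 E box, CAGCTG at 138 bases, and 1 N box at 76 bases, and 22 of its bases lie in an annotated exon of another Chrne transcript. The alpha promoter held 3 E boxes at 92, 73 and 44 bases, of which those at 92 and 44 read CAGCTG. The beta promoter held 3 E boxes at 119, 96 and 29 bases, none of them CAGCTG, and 6 of its bases lie in an annotated exon of the gene. Among 32851 RefSeq promoter windows of this length, 66.2% held at least 1 CANNTG, 13.0% at least 1 CAGCTG, which is also a CANNTG, and 12.03% the N box on either strand. Windows with 2 or more CANNTG made up 31.8%, and those with 2 or more CAGCTG 1.26%. Of the 10 genes, 7 had an entry (9 promoters in all, with a pair each for Dok7 and Agrn). The N box occurred in 1 of these 9, that of Chrne, near its share of 12.03% over all windows. Musk held 3 E boxes, 1 of them CAGCTG, while Dok7 held 1 and 0 in its entries and Agrn 0 and 1. In the second Dok7 window 167 of the 250 bases lie in annotated exons of the gene. A motif match describes the letters and was not tested as a binding site.

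Library totals ranged from 15716056 to 29790720 counts. Pparg was at 45.0 to 67.4 CPM (counts scaled to library size, with TMM factors) in controls and at 15.6 to 43.1 CPM in knockouts, so no library went against its label. The summed CPM of 12 mature fast fibre genes was 17796 in control replicate 2, 18279 in control replicate 6 and 14794 in knockout replicate 6, against 34658 to 56135 in the other 9 libraries, and the mitochondrial share of counts was also lowest in those 3 libraries (2.78% to 4.05%, others 4.34% to 11.1%). Myoblast and myocyte markers were present in every library. The motor axon markers Chat, Slc18a3, Isl1 and Mnx1 had 0 counts in all 12, which allows up to 0.0990 to 0.206 CPM by library; motor neurons have their cell bodies in the spinal cord. In the comparison of knockout with control, 131 of the 16393 genes passed at an adjusted p under 0.05 (quasi-likelihood test of edgeR, Benjamini-Hochberg adjustment), 8 higher and 123 lower, and this number went from 6 without knockout replicate 3 to 214 without knockout replicate 2.

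No member passed that test, although all 10 had positive log2 fold changes. The call rate over all tested genes was 0.0488% for higher genes and 0.75% for lower ones, and 49.5% of tested genes had a positive log2 fold change. At an unadjusted p under 0.05 the higher genes included 3 of the 10 members, Chrnd, Musk and Dok7, against 3.79% of all tested genes, and the lower genes included 0 of them, against 5.68% (9.47% in either direction). The members' median log2 fold change was 0.26 (range 0.18 to 0.59), and the median of all tested genes was -0.00. The values come from the same 12 libraries, and members that move together across libraries do not give separate counts. Only Dok7 had every knockout library above every control, a pattern seen in 0.159% of all tested genes, and 0 members had every knockout below every control, against 1.27%. DESeq2 and limma-voom with quality weights each called 1 of the 10, Dok7, as higher; these tools called 0.349% and 0.378% of their tested genes higher.

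**Figure D1:**
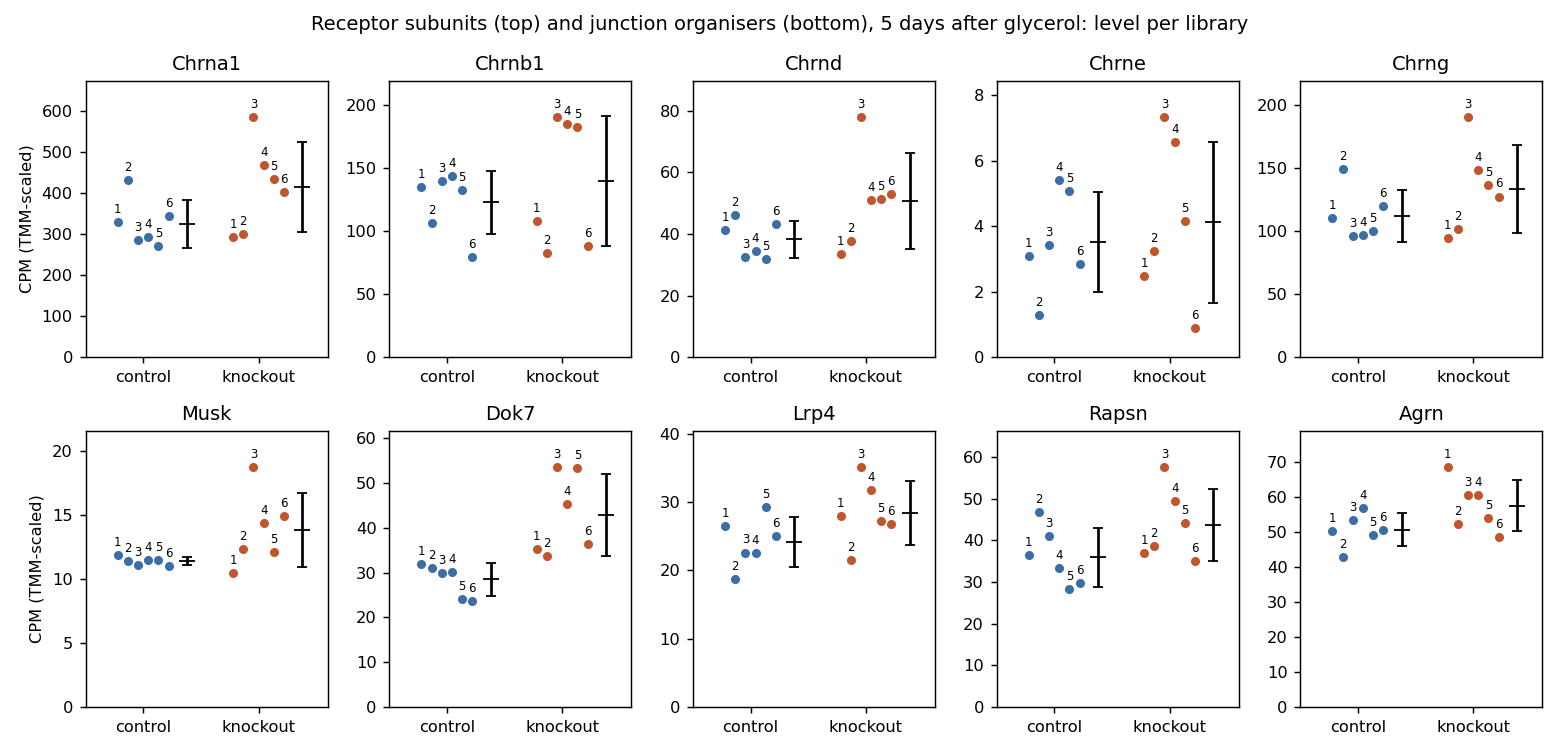
Each point is the TMM-scaled CPM of a gene in 1 library, with replicate numbers beside the points and the mean ± SD (n = 6) in black; each panel has its own axis from 0. Knockout replicate 3 is the highest library for 9 of the 10 genes, and Dok7 is the gene whose groups do not overlap.

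The higher values were unevenly spread over the knockout libraries. Knockout replicate 3 lay above all 6 controls for 10 of 10 members and was the highest of the 12 libraries for 9, Agrn being highest in knockout replicate 1. Knockout replicate 4 lay above all controls for 9 members, every one except Chrng. Knockout replicate 5 did so for 5 members and knockout replicate 6 for 3. Knockout replicate 1 did so for Dok7 and Agrn only, and knockout replicate 2 for Musk and Dok7 only. These last 2 libraries also had the most Pparg of the knockouts (33.9 and 43.1 CPM). Among the other knockouts Pparg was lowest in replicate 5 (15.6 CPM) and highest in replicate 4 (24.2 CPM). The part of remaining Pparg in the member values was not tested.

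The alpha subunit, which carries most of the acetylcholine binding site and is part of both receptor forms, was the most abundant member. Chrna1 (ENSMUSG00000027107, chr2:73563215-73580338, minus strand, GRCm38) had a lowest, median and highest value of 272, 310 and 431 CPM in controls and of 292, 419 and 585 CPM in knockouts. Knockout replicates 3, 4 and 5 lay above every control, and replicates 1, 2 and 6 lay inside the control range. The means were 325 ± 58.6 and 414 ± 110 CPM (SD, n = 6 each), with a log2 fold change of 0.35 (SE 0.17, adjusted p = 0.554, edgeR quasi-likelihood). Of the 50-base words of its longest transcript 3.02% also occur in other genes, against 0% for each of the other 9 members.

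The delta subunit, also shared by both forms, had the largest log2 fold change of the 5 subunits. Chrnd (ENSMUSG00000026251, chr1:87190607-87200070, plus strand), which neighbours Chrng on chromosome 1, had values of 31.8, 37.9 and 46.0 CPM in controls (lowest, median, highest) and 33.5, 51.2 and 77.9 CPM in knockouts. Knockout replicates 3 to 6 lay above every control, and replicates 1 and 2 lay among them. The log2 fold change was 0.41 (SE 0.18, unadjusted p = 0.0367, adjusted p = 0.465, edgeR quasi-likelihood).

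The beta subunit, the third that both forms share, split the libraries in another way. Chrnb1 (ENSMUSG00000041189, chr11:69784036-69795943, minus strand) stood at 79.7, 134 and 144 CPM in controls and at 83.0, 145 and 191 CPM in knockouts (lowest, median, highest). The 3 highest libraries were knockout replicates 3, 4 and 5 (191, 185 and 183 CPM), and the 3 lowest were control replicate 6, knockout replicate 2 and knockout replicate 6 (79.7, 83.0 and 88.5 CPM). The log2 fold change was 0.18 (SE 0.23, adjusted p = 0.923, edgeR quasi-likelihood), so the difference was smaller than its error.

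The gamma subunit, which defines the foetal form, was present at a high level in every library. Chrng (ENSMUSG00000026253, chr1:87204657-87212694, plus strand) stood at 95.9, 105 and 149 CPM in controls and at 94.6, 132 and 190 CPM in knockouts (lowest, median, highest). Knockout replicate 3 was the only library above all controls, since control replicate 2, at 149 CPM, lay above the other 5 knockouts. The log2 fold change was 0.25 (SE 0.16, adjusted p = 0.746, edgeR quasi-likelihood).

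The epsilon subunit, which defines the adult form, was the least abundant member. Chrne (ENSMUSG00000014609, chr11:70614883-70619216, minus strand) stood at 1.29, 3.26 and 5.42 CPM in controls and at 0.877, 3.70 and 7.34 CPM in knockouts (lowest, median, highest), which rest on 20 to 222 counts per library. The groups overlapped over nearly their whole range, with the lowest and the highest library both in the knockout group. The log2 fold change was 0.22 (SE 0.44, adjusted p = 0.958, edgeR quasi-likelihood), and it turned to -0.04 without knockout replicate 3. Its lowest values, in knockout replicate 6 and control replicate 2 (0.877 and 1.29 CPM), fell in libraries that were also lowest in mature fast fibre genes. Control replicate 6, also low in those genes, had 2.84 CPM of Chrne. That was above knockout replicate 1 (2.49 CPM), which was not low in them. The part of fibre content in Chrne was not tested. In whole muscle, fewer cells of a type and less RNA per cell cannot be told apart. Chrne overlaps 4930544D05Rik on the opposite strand without a shared exon base.

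Per length, on the deposited FPKM scale, the order of the subunit levels in controls was Chrna1 (73.2 ± 13.2), Chrnb1 (47.9 ± 9.64), Chrng (26.6 ± 4.86), Chrnd (11.5 ± 1.81) and Chrne (2.06 ± 0.89; SD, n = 6). In knockouts the same order held, with FPKM levels of 93.7 ± 24.8, 54.8 ± 20.2, 31.8 ± 8.25, 15.3 ± 4.69 and 2.42 ± 1.44. Among the subunits the ranges of Chrna1 (61.2 to 97.0 FPKM) and Chrnb1 (31.3 to 56.2 FPKM) did not overlap in controls, whereas those in knockouts (66.3 to 133 and 32.6 to 74.9 FPKM) did. Among the organisers the control FPKM levels were 19.7 ± 3.87 for Rapsn, 6.58 ± 0.82 for Dok7, 5.39 ± 0.50 for Agrn, 2.98 ± 0.07 for Musk and 2.27 ± 0.34 for Lrp4. Chrne and Lrp4, next to each other in that order, overlapped in range, and so did Dok7 and Agrn.

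The foetal subunit outweighed the adult subunit in all 12 libraries. The Chrng to Chrne ratio per length was 12.9-fold at the median of controls (7.27 to 47.0) and 13.0-fold at the median of knockouts (9.16 to 59.0). With the lengths of the longest coding transcripts, an alternative added after the data were seen, the medians were 18.2-fold and 18.4-fold, so the level of the ratio depends on the lengths used. On the log2 scale the ratio averaged 3.81 ± 0.98 (controls) and 3.97 ± 0.97 (knockouts; SD, n = 6 each). The difference of 0.16 did not pass (two-sided exact permutation p = 0.729, adjusted p = 0.729 over 3 ratios), and its 95% interval, from -1.06 to 1.395, leaves room for a change of more than 2-fold in either direction. Control replicate 2 and knockout replicate 6 held the highest log2 ratios, 5.56 and 5.88.

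Relative to alpha, the gamma subunit was slightly lower in knockouts. The Chrng to Chrna1 ratio per length had a log2 mean of -1.46 ± 0.05 (controls) and -1.56 ± 0.04 (knockouts; SD, n = 6 each). The difference was -0.095, with a 95% interval from -0.155 to -0.04 (two-sided exact permutation p = 0.00866, adjusted p = 0.0260 over 3 ratios; the smallest p this design allows is 0.00216). It was seen in 5 of 6 knockout libraries, which lay below every control (-1.51 to -1.37), while knockout replicate 2, at -1.49, lay within that range. The median ratio went from 0.360 to 0.338, so the difference was small, though on the log2 scale it was larger than the SD of either group. The call was lost, at an adjusted p of 0.0519, without knockout replicate 1, 3, 4, 5 or 6, and at an adjusted p of 0.119 without control replicates 2 and 6 and knockout replicate 6 together (exact permutation). The Chrne to Chrna1 ratio had log2 values of -5.28 ± 0.98 and -5.53 ± 0.98, and its difference of -0.25 did not pass (exact permutation p = 0.619, adjusted p = 0.729, 95% interval -1.52 to 0.965).

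**Figure D2:**
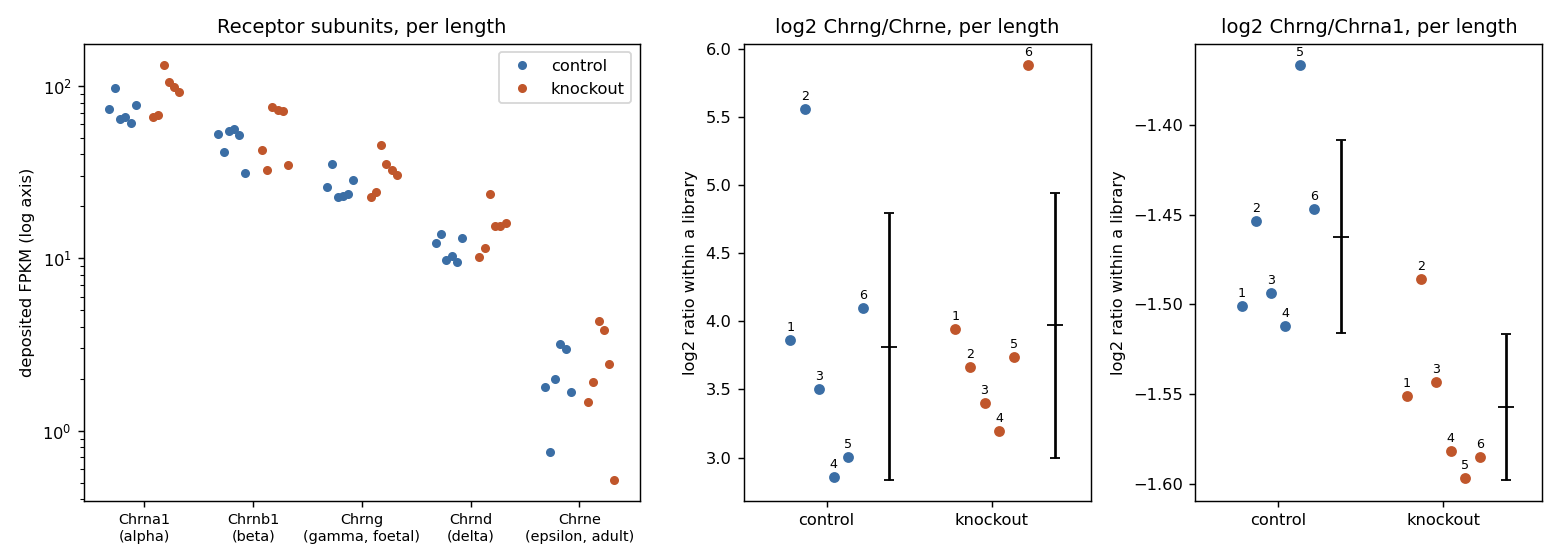
Left, deposited FPKM of the 5 subunits on a log axis, 1 point per library; middle and right, the log2 ratios per length of Chrng to Chrne and of Chrng to Chrna1 within each library, with replicate numbers and the mean ± SD (n = 6) in black. The Chrng to Chrne ratios overlap between groups, whereas 5 of 6 knockout libraries lie below all controls for Chrng to Chrna1, on an axis much narrower than that of the middle panel.

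Across libraries the level of gamma was closely correlated with that of alpha. Within the 6 controls, log2 CPM of Chrng and Chrna1 had a Pearson r of 0.976 (exact permutation p = 0.00694, adjusted p = 0.0208 over 6 relations) and a Spearman rho of 0.829 (exact permutation p = 0.0583, adjusted p = 0.0700). Within the 6 knockouts r was 0.995 (exact permutation p = 0.00139, adjusted p = 0.00833) and rho was 1.00 (exact permutation p = 0.00278, adjusted p = 0.0167). Without the 2 libraries farthest from the median of Chrng, r was 0.811 in controls and 0.997 in knockouts. For Chrng and Chrne in controls, r was -0.929 (exact permutation p = 0.0125, adjusted p = 0.0250) and rho was -0.829 (exact permutation p = 0.0583). Without the 2 farthest libraries this r was -0.546, from few libraries over a narrower range of Chrng. Whether the relation rests on the 2 left out cannot be told from it. In knockouts the r of Chrng and Chrne was 0.533 (exact permutation p = 0.276, adjusted p = 0.285; rho 0.829, exact permutation p = 0.0583), and 0.298 without the 2 farthest. For Chrnb1 and Chrne, r was 0.518 in controls and 0.786 in knockouts (exact permutation p = 0.285 and 0.0458, adjusted p = 0.285 and 0.0687; rho 0.771 and 0.829, exact permutation p = 0.103 and 0.0583).

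**Figure D3:**
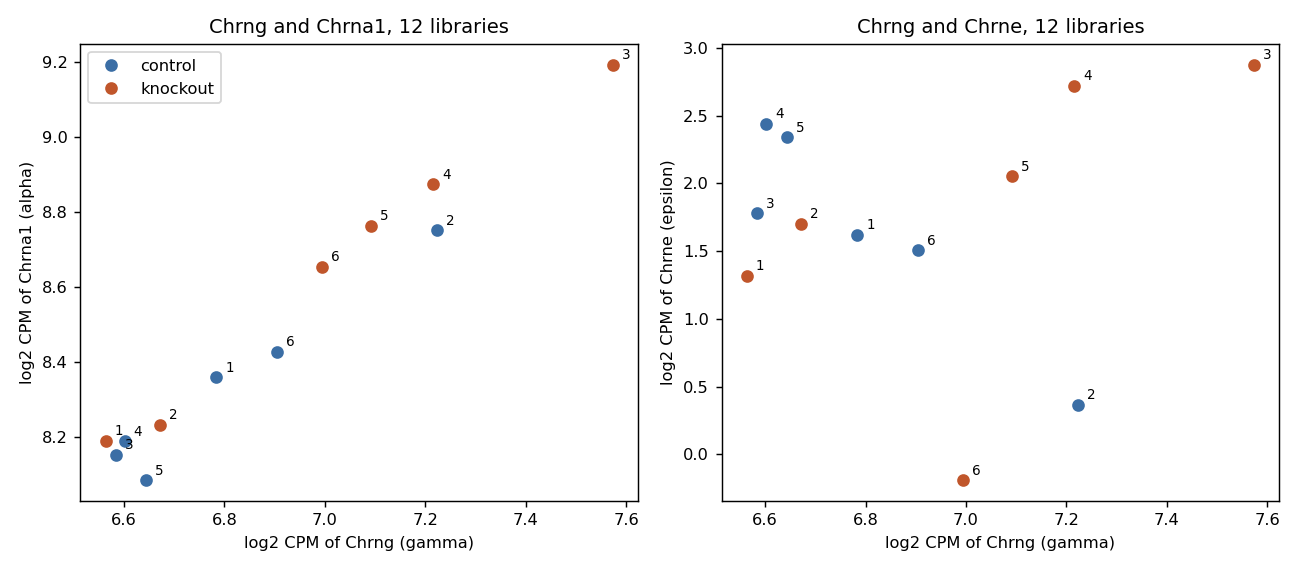
Log2 CPM of Chrna1 (left) and of Chrne (right) against log2 CPM of Chrng, 1 point per library with its replicate number. The points for Chrna1 lie close to a line in both groups. Those for Chrne run downward in controls and loosely upward in knockouts, with control replicate 2 and knockout replicate 6 lowest.

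Over all 12 libraries with each group centred on its mean, the genes most like Chrng among 12606 protein-coding genes were Chrna1 (Pearson r 0.99), Inpp4b, a phosphoinositide phosphatase (0.96), Chrnd (0.95), Tfcp2, a transcription factor (0.94), and Cdkn1a, the cell cycle inhibitor p21 (0.93). Those most like Chrne were Slc26a6, an anion exchanger (0.94), Etl4 (0.94), Suox, the sulfite oxidase (0.93), Wdr60, a dynein subunit of cilia (0.93), and Mapre3, which binds microtubule ends (0.93). No gene was on both lists. The centred r of Chrng with Chrne was 0.09, which joins groups of opposite sign (r -0.929 in controls and 0.533 in knockouts). That of Chrnb1 was 0.37 with Chrng and 0.71 with Chrne. These correlations share library composition and depth and are descriptive.

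Of the organisers, Dok7 stood apart by the size and evenness of its difference. Dok7 (ENSMUSG00000044716, chr5:35056766-35087839, plus strand), the adaptor that MuSK needs for full activity, stood at 23.8, 30.03 and 31.9 CPM in controls and at 33.7, 40.8 and 53.6 CPM in knockouts (lowest, median, highest). The lowest knockout, replicate 2, lay above the highest control, replicate 1. The means were 28.5 ± 3.61 and 42.9 ± 9.14 CPM (SD, n = 6 each), a log2 fold change of 0.59 (SE 0.13) or 1.51-fold. The unadjusted p was 0.000583, rank 152 of the tested genes, and the adjusted p was 0.0628 with edgeR, just outside the threshold. Dok7 passed with DESeq2 (adjusted p = 0.00326), with limma-voom (adjusted p = 0.0140) and with edgeR without the low count filter (adjusted p = 0.0375), without knockout replicate 1 (adjusted p = 0.0394) or without knockout replicate 2 (adjusted p = 0.0303). It did not pass in the other 10 edgeR fits with 1 library left out (adjusted p up to 0.153).

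The kinase of the pathway varied little among controls. Musk (ENSMUSG00000057280, chr4:58285960-58374303, plus strand) stood at 11.01, 11.5 and 11.9 CPM in controls, a mean of 11.4 ± 0.316 CPM, and at 10.5, 13.4 and 18.8 CPM in knockouts, a mean of 13.9 ± 2.90 CPM (SD, n = 6 each). All knockouts except replicate 1, the lowest of the 12 libraries, lay above every control, and knockout replicate 3 was farthest from the rest. The control values rest on 206 to 268 counts per library. Counting error alone can give a spread as large as this SD or larger, so the narrow control range is not read as a trait of Musk. The number of knockouts above every control depends on that range. The log2 fold change was 0.28 (SE 0.12, unadjusted p = 0.0337, adjusted p = 0.449, edgeR quasi-likelihood).

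The agrin receptor and the clustering protein showed differences of like size with overlapping groups. Lrp4 (ENSMUSG00000027253, chr2:91457511-91513779, plus strand) stood at 18.7, 23.8 and 29.2 CPM in controls and at 21.5, 27.6 and 35.2 CPM in knockouts, with a log2 fold change of 0.24 (SE 0.12, adjusted p = 0.604, edgeR quasi-likelihood). Rapsn (ENSMUSG00000002104, chr2:91035620-91045729, plus strand) stood at 28.3, 34.9 and 46.9 CPM in controls and at 35.1, 41.5 and 57.7 CPM in knockouts, with a log2 fold change of 0.28 (SE 0.15, adjusted p = 0.602, edgeR quasi-likelihood). In both genes knockout replicates 3 and 4 were the only libraries above every control. Rapsn shares 4 exon bases with Gm13778 on the opposite strand.

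The ligand of the pathway gave the smallest difference of the organisers. Agrn (ENSMUSG00000041936, chr4:156165290-156197488, minus strand) stood at 43.0, 50.6 and 57.0 CPM in controls and at 48.7, 57.5 and 68.8 CPM in knockouts, with a log2 fold change of 0.18 (SE 0.09, adjusted p = 0.549, edgeR quasi-likelihood). Knockout replicates 1, 3 and 4 lay above every control. Agrin is made by motor neurons, muscle, Schwann cells and vessels in different splice forms, and a count per gene does not separate the neural form that activates MuSK. Its centred r with the other 9 members ran from -0.32 with Chrng to 0.61 with Chrne.

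The summed CPM of the 5 organisers was 140 to 158 in controls and 159 to 226 in knockouts, so the sums did not overlap but nearly met. They include Dok7, the only organiser whose own groups did not overlap, so the gap is not a separate result for the organisers as a group. The summed CPM of the 5 receptor subunits was 541 to 734 in controls and 527 to 1051 in knockouts, with knockout replicates 1 and 2 (530 and 527 CPM) below every control. These sums are weighted to the most abundant member of each group.

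**Figure D4:**
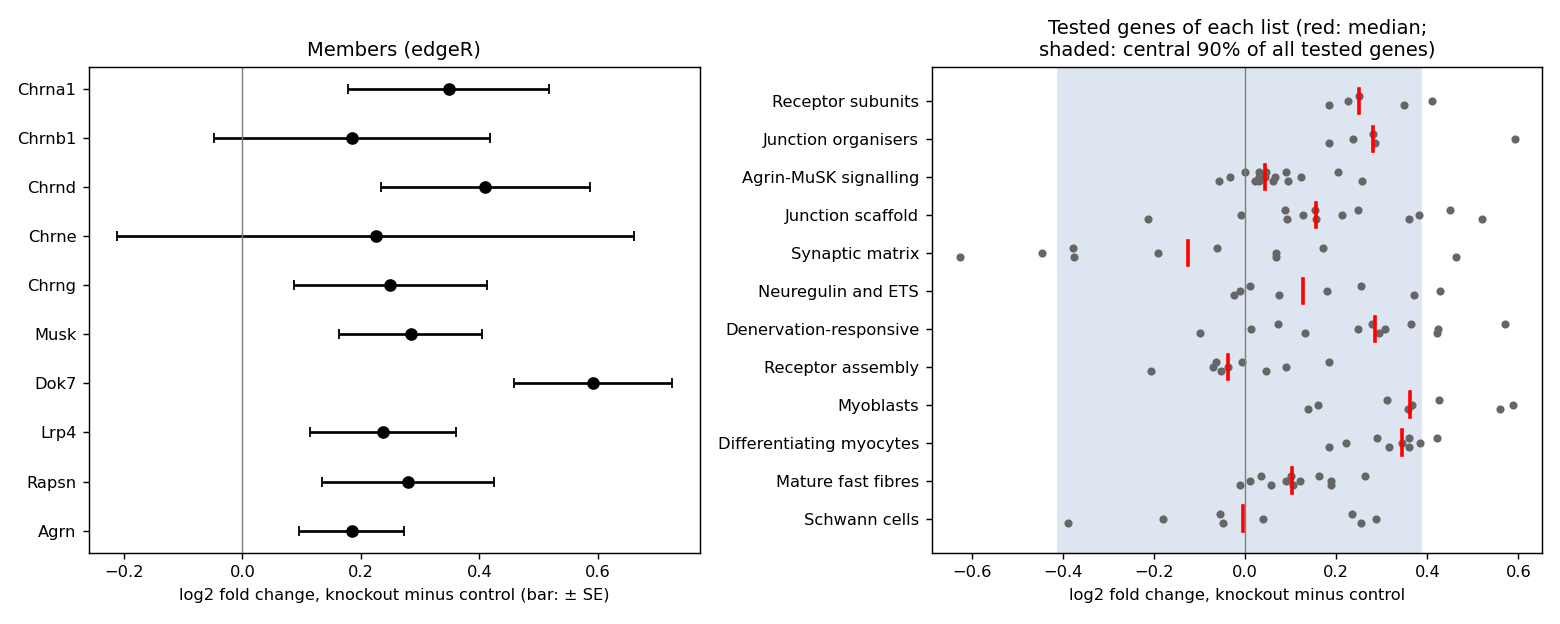
Left, log2 fold changes (knockout minus control) of the 10 genes with their SE from edgeR; right, log2 fold changes of the tested genes on each list, with the list median in red and the central 90% of all tested genes shaded. All 10 members lie to the right of 0, between 0.18 and 0.59. The synaptic matrix, receptor assembly and Schwann cell lists have medians below 0 (-0.127, -0.037 and -0.005).

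Other genes of the junction were read from lists, none of which had a member past the threshold (edgeR quasi-likelihood; 0.799% of all tested genes passed in either direction). Counts of list genes at an unadjusted p under 0.05 stand beside 3.79% of all tested genes higher and 5.68% lower, and counts of positive values beside 49.5%. The 16 genes of agrin-MuSK signalling had a median log2 fold change of 0.04, with 13 positive and 3 negative and 0 at an unadjusted p under 0.05. The lowest p-values belonged to the kinase Abl2 (0.26), the polarity protein Vangl2 (0.20) and the kinase Pak1 (0.12), given as log2 fold changes. The 13 scaffold and anchoring genes had a median of 0.16, with 11 positive and 2 negative, and 3 higher and 1 lower at an unadjusted p under 0.05. They included Dtna, the dystrobrevin that steadies receptor clusters (44.3 ± 10.1 against 63.6 ± 13.9 CPM, log2 fold change 0.52), the intermediate filament Nes (0.45) and the linker Plec (0.25).

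The synaptic matrix list had more negative than positive values. Of its 10 tested genes of 11, 4 had positive and 6 negative log2 fold changes (median -0.13), and 1 was higher and 3 lower at an unadjusted p under 0.05. Lama4, a laminin chain of synaptic and vessel basement membranes, averaged 122 ± 12.4 CPM (controls) and 94.1 ± 11.9 CPM (knockouts; SD, n = 6 each), and its log2 fold change of -0.38 had an adjusted p of 0.0849 with edgeR. Nid1, which links laminin to collagen IV, had a log2 fold change of -0.45 and the laminin chain Lama5 one of 0.46. These matrix genes are also made by adipocytes, vessels and FAPs, and the summed CPM of 8 adipocyte markers was 3510 to 5294 in controls and 681 to 2403 in knockouts. The 6 FAP markers had 5 negative log2 fold changes and a median of -0.20, with 0 higher and 2 lower at an unadjusted p under 0.05, and summed to 3896 to 5754 CPM in controls and 3551 to 6156 CPM in knockouts. The part of either cell type in the matrix values was not tested.

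Genes that regulate junction transcription or respond to denervation had mostly positive values. Of 8 tested neuregulin and ETS genes of 9, 6 were positive and 2 negative with a median of 0.13, and 3 were higher at an unadjusted p under 0.05: the ETS factor Etv4 (log2 fold change 0.43) and the neuregulin receptors Erbb3 (0.37) and Erbb2 (0.26). Of 12 tested denervation-responsive genes of 13, 11 were positive and 1 negative with a median of 0.29, and 3 were higher at an unadjusted p under 0.05. They included the cell adhesion molecule Ncam1 (155 ± 17.3 against 207 ± 50.5 CPM, log2 fold change 0.42) and the transcription factor Myog (248 ± 49.5 against 331 ± 62.0 CPM, 0.42). The 9 receptor assembly genes had a median of -0.04, with 3 positive and 6 negative, and 0 were higher and 1 lower at an unadjusted p under 0.05. That gene was Alg14, a glycosylation enzyme (log2 fold change -0.21), followed by Gfpt1 (0.09) and Dpagt1 (-0.07). Of 11 neuronal nicotinic receptor genes only Chrna4 and Chrnb2 passed the low count filter, with control means of 0.541 and 1.91 CPM and log2 fold changes of 0.37 and 0.14.

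The summed CPM of myoblast markers and of receptor subunits was highest in the same libraries, knockout replicates 3 to 6 and control replicate 2. The order within these libraries differed. All 8 myoblast markers had positive log2 fold changes (median 0.36, 3 higher at an unadjusted p under 0.05, against 3.79% of all tested genes), and their summed CPM was 376 to 502 in controls and 408 to 690 in knockouts, highest in knockout replicate 3. All 9 markers of differentiating myocytes, among them Myog, were positive too (median 0.34, 4 at an unadjusted p under 0.05), with summed CPM of 6854 to 11309 and 7715 to 14244, highest in knockout replicate 5. Knockout replicate 6 had a myoblast sum of 593 CPM, but its receptor sum of 673 CPM lay below that of control replicate 2 (734 CPM). Control replicate 1 had a myocyte sum of 11309 CPM, above knockout replicate 4 (9871 CPM), but the lower receptor sum (618 against 860 CPM). Of 12 mature fast fibre markers 11 were positive (median 0.10, 0 at an unadjusted p under 0.05). The part of the number of regenerating fibres in the receptor and organiser values was not tested. Without control replicates 2 and 6 and knockout replicate 6, the libraries low in mature fibre genes (an alternative added after the data were seen), log2 fold changes were 0.51 for Chrna1, 0.53 for Chrnd, 0.42 for Chrng and 0.62 for Dok7, and none passed (adjusted p = 0.185 for Dok7, edgeR quasi-likelihood).

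Schwann cells, the glia of the nerve, had markers of both signs. Of 8 tested Schwann cell markers 4 were positive and 4 negative with a median of -0.00, and their summed CPM was 33.4 to 42.8 in controls and 34.0 to 39.3 in knockouts. Of the motor axon markers only Slc5a7, the choline transporter, passed the low count filter (log2 fold change -0.37, adjusted p of 0.907 with edgeR), and they summed to 0.829 to 2.53 CPM in controls and 0.618 to 1.67 CPM in knockouts, near the floor of detection, and their part in the member values was not tested. Macrophage markers summed to 1752 to 2235 and 1531 to 2508 CPM, and endothelial markers to 209 to 294 and 159 to 286 CPM.

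**Figure D5:**
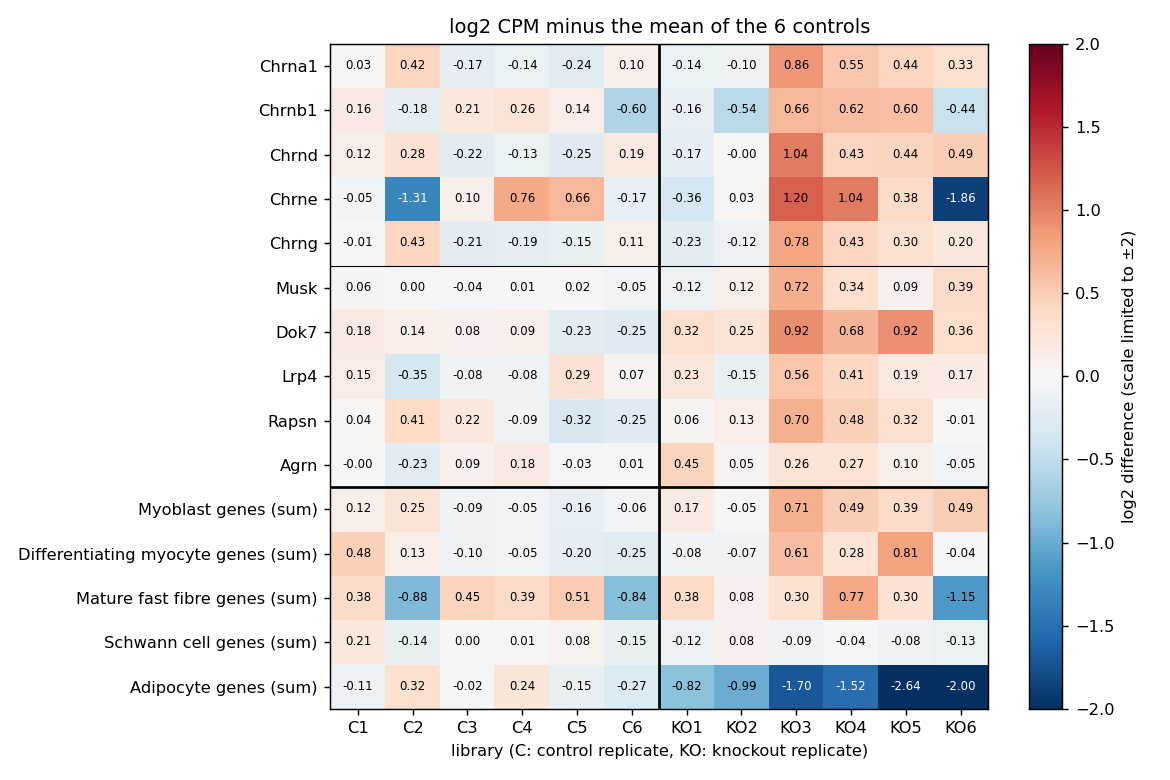
Log2 CPM minus the mean of the 6 controls for each gene and for the summed markers of 5 cell types, by library, with colours limited to a log2 difference of 2 in either direction. Knockout replicates 3, 4, 5 and 6 are above the control mean for most receptor and organiser genes and for the myoblast sum. In knockout replicate 1 the myoblast sum is above it too. The adipocyte sum is below the controls in all 6 knockouts.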

How the data were processed

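Poly-A RNA of 12 whole muscle lysates, 6 per group, had been sequenced. The authors' deposited table gives raw read counts for each gene, which per the submitters' processing notes were made with fastp, HISAT2 2.0.5 and featureCounts on GRCm38 (mm10). No source used here gives the strand setting, so genes overlapping on opposite strands may share reads. A second deposited table holds FPKM values, proportional to count over gene length within a library.

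Genes were kept by filterByExpr (minimum count 10, minimum total 15), scaled by TMM and tested with edgeR 4.0.16 (robust quasi-likelihood, R 4.3.3), with Benjamini-Hochberg adjustment over 16393 genes and a threshold of 0.05. Log2 CPM used a prior count of 2. Ratios of counts per length (0.5 added to each count as an alternative) were compared between groups by exact permutation (two-sided, 924 assignments of the libraries), with 95% intervals from the same permutations. On simulated counts for these libraries, the test found 75 of 100 genes changed 1.5-fold and 91 of 100 changed 2-fold, with 8 false among 174 calls. The changed genes were drawn from the more abundant of the tested genes, and each gene was simulated independently. These rates therefore do not cover the least abundant genes or shifts that many genes of a library share. Alternatives covered scaling, filters, DESeq2 1.42.0, limma 3.58.1 voom with quality weights, FPKM with a pseudocount of 1, a replicate block and each library left out. Longest coding transcript lengths, mitochondrial counts left out and the 3 libraries low in mature fibre genes left out were added after the data were seen. No library was a duplicate (chi-square per degree of freedom at least 13.0 over 30 pairs). Overlaps were read from GENCODE M21.

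The members and gene lists were chosen with earlier results of these data known. Named genes are the 10 members, the 3 genes of each pathway list with the lowest p, and the 5 protein-coding genes most correlated with Chrng and with Chrne. Of the genes so chosen, 1 is not reported here, though list counts include it.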

Additional observations from a re-analysis of the deposited data

Results flagged for a closer look

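In 2 of 26 groups of 6 libraries that were checked, 1 library lay far from the others; chance flags about 1 in 20 groups. Both cases were knockout replicate 6. Its log2 ratio of Chrng to Chrne per length was 5.88, against 3.20 to 3.94 in the other 5 knockouts, and its log2 ratio of Chrne to Chrna1 was -7.47, against -5.49 to -4.78. They are not separate cases, since both rest on the 20 counts of Chrne in that library.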

How the results depend on the processing

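The 10 log2 fold changes stayed positive in every alternative except that of Chrne without knockout replicate 3 (-0.0376 to 0.439 over the fits with a library left out), and only Dok7 ever passed. The number of genes called, 131 (8 higher and 123 lower), was 236 (15 and 221) with the replicate block, 387 (64 and 323) with DESeq2, 393 (62 and 331) with limma-voom and 9 (4 and 5) without the 3 libraries low in mature fibre genes. With each library left out in turn it ranged from 6 to 214 (higher 1 to 24, lower 5 to 190). Members called went from 0 to 1 with DESeq2, with limma-voom and without the low count filter, and ranged from 0 to 1 with a library left out. The adjusted p of Dok7 was 0.0552 and 0.0506 with RLE and upper quartile scaling (edgeR), 0.0698 on FPKM (limma) and 0.101 with the replicate block. The Chrng to Chrne difference ranged from -0.22 to 0.51 with a library left out, turning negative without control replicate 4 (-0.03), control replicate 5 (-0.00465) or knockout replicate 6 (-0.22). That of Chrne to Chrna1 ranged from -0.60 to 0.14, turning positive only without knockout replicate 6 (0.14). That of Chrng to Chrna1 ranged from -0.109 to -0.0759 (exact permutation, adjusted p = 0.0130 to 0.0519), losing its call without knockout replicate 1, 3, 4, 5 or 6, and was -0.083 without the 3 libraries (exact permutation, adjusted p = 0.119).

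The replicate numbers were not taken as pairs: same-numbered libraries had correlations of their deviations from -0.133 to 0.464, and only numbers 4 and 6 matched their own number best. With the replicate block the ratio differences had exact permutation p-values of 0.719 for Chrng to Chrne, 0.5625 for Chrne to Chrna1 and 0.0313 for Chrng to Chrna1 (difference -0.095). The last is the smallest that 6 pairs allow, and adjusted over the 3 ratios it was 0.0938 and did not pass. Counts of Chrne, 20 to 222 per library, limit every ratio that holds it, and intervals cover the spread between libraries only.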
